A study of Mus musculus with 6 samples.

Results

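The miR-29 family was followed through 5 mature miRNA names, mmu-miR-29a-3p, mmu-miR-29b-3p, mmu-miR-29c-3p, mmu-miR-29a-5p and mmu-miR-29c-5p. They were chosen by name from the 2009 names of the deposited small RNA table, and 5 of 5 were found. The table covers 6 libraries from hearts of male mice, each perfused outside the body on a Langendorff apparatus. The 3 sham hearts kept beating, and in the 3 ischemia-reperfusion (I/R) hearts cardioplegia, a solution that stops the beat, was given for 30 min before 1 h of reperfusion. All 6 hearts, shams included, thus share isolation and artificial perfusion, and neither strain nor age is given in the sources used here. The labels number the hearts 1 to 3 within each group as biological replicates. The library protocol in the labels names kits for poly(A) mRNA, whereas the titles name miRNA libraries. How small RNA was selected is not given in the sources used here.

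MicroRNAs are short RNAs that guide Argonaute proteins to target mRNAs, mostly through pairing of the seed, the bases near the 5′ end. A hairpin precursor is cut into a duplex of a 5p and a 3p strand, of which usually 1 is retained and the other is degraded. The miR-29 family is known for repressing mRNAs of extracellular matrix proteins such as collagens, elastin and fibrillin. In heart, a loss of miR-29 beside an infarct has been linked to scar formation, and transforming growth factor beta is known to lower it in fibroblasts. In the family the 3p strand is known as the retained one, although both strands of miR-29c stood at similar levels in these libraries.

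The 3p members are shown first because they share their seed and differ in few bases, which sets how well reads can be assigned to each of them. Sequences are from RefSeq (GRCm38.p6), 5′ to 3′, with the seed (bases 2 to 8) in capitals.
mmu-miR-29a-3p: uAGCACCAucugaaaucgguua
mmu-miR-29b-3p: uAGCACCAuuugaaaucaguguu
mmu-miR-29c-3p: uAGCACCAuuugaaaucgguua
The seed AGCACCA was held at bases 2 to 8 by 3 of the 1679 mature names with a sequence in the table used (0.179%), and these were the 3 members. Counted from 1 at the 5′ end, miR-29a-3p and miR-29c-3p differ by C10U alone, the base of miR-29a-3p written first. miR-29b-3p and miR-29c-3p are identical over their first 17 bases and then differ by A18G, G21U and U22A. miR-29b-3p is 23 nt long, and miR-29a-3p and miR-29c-3p are 22 nt long. Its last 6 bases, AGUGUU, are known as a signal for import into the nucleus. They end 2 of the 1679 mature names (0.119%), miR-29b-3p and miR-92b-5p, and stand anywhere in 12 (0.715%). No mature name outside the family came closer to a 3p member than 9 differences, counted without gaps from base 1.

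The 5p strands come from the other side of the hairpins and are shown because each marks 1 hairpin.
mmu-miR-29a-5p: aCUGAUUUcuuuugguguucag
mmu-miR-29c-5p: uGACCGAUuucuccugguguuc
mmu-miR-29b-1-5p: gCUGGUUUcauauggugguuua
mmu-miR-29b-2-5p: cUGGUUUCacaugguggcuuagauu
Both miR-29b strands are listed under their own names and are described here beside the members. The seed of miR-29a-5p and that of miR-29c-5p were each held by 1 of the 1679 names. The 5p strands therefore do not share the 3p seed.

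The 4 hairpins lie in 2 clusters (GRCm38). On chromosome 6, minus strand, Mir29a spans 31062660 to 31062747 and Mir29b-1 spans 31063023 to 31063093, with 275 nt between them. Mir29a overlapped no other annotated gene in GENCODE M21, and Mir29b-1 overlapped the end of an exon of the lincRNA Gm27019. On chromosome 1, plus strand, Mir29b-2 spans 195037040 to 195037120 and Mir29c spans 195037547 to 195037634, with 426 nt between them. Both lie in an exon of a retained-intron transcript of the noncoding gene A330023F24Rik, and opposite to an annotated UTR of Cd46. The mature miR-29b-3p is encoded at both clusters, at 31063025 to 31063047 on chromosome 6 and at 195037091 to 195037113 on chromosome 1, so its reads cannot be assigned to either hairpin.

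Levels are reads per 1000000 reads on listed names (RPM), and groups are given as mean ± SD with n = 3 hearts. Summed over the listed names, the libraries held 7874103 to 9197869 reads, so that 1 read was worth 0.109 to 0.127 RPM. A read listed under more than 1 name would enter this sum more than once, and whether any did was not tested. miR-29a-3p was at 1494, 1549 and 1721 RPM in sham replicates 1 to 3 and at 1532, 1537 and 1543 RPM in I/R replicates 1 to 3. It ranked between 33 and 41 among all names of a library. Sham replicate 3 was the highest library, and the I/R values lay within the range of the sham values.

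miR-29b-3p was at 26.5, 32.1 and 32.1 RPM in sham and at 26.1, 28.0 and 30.7 RPM in I/R hearts. These values rest on 214 to 284 reads per library, and the groups overlapped. miR-29c-3p was at 15.7, 21.6 and 20.6 RPM in sham hearts and at 15.9, 15.9 and 14.9 RPM after I/R, from 117 to 191 reads. Sham replicates 2 and 3 stood above all I/R hearts, while sham replicate 1 lay among them.

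miR-29c-5p was at 14.8, 27.7 and 20.9 RPM in sham and at 18.2, 17.7 and 14.1 RPM in I/R hearts, from 111 to 245 reads. Sham replicate 2 was the highest library for this strand, as it was for miR-29c-3p. miR-29a-5p was at 2.61, 3.73 and 3.58 RPM in sham and at 3.66, 4.40 and 2.41 RPM in I/R hearts, from 19 to 36 reads, with the I/R hearts on both sides of the sham hearts.

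The 5p strands of the miR-29b hairpins were near the limit of detection, where 3 reads correspond to 0.326 to 0.381 RPM. miR-29b-1-5p had 9, 10 and 10 reads in sham and 4, 1 and 9 reads in I/R hearts, or 1.11 ± 0.13 and 0.58 ± 0.52 RPM. miR-29b-2-5p had 9, 10 and 12 reads in sham and 17, 9 and 20 reads in I/R hearts, or 1.20 ± 0.26 and 1.90 ± 0.73 RPM. Both pairs of groups overlapped.

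**Figure D1:**
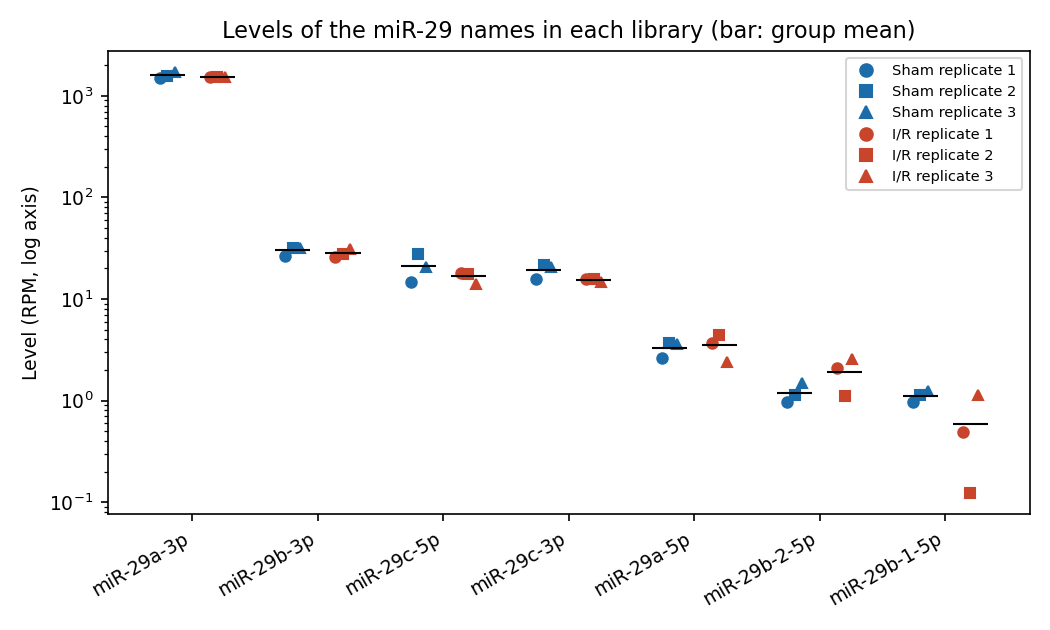
Level of each miR-29 name in RPM (vertical log axis) in each of 6 libraries, with sham in blue, I/R in red, symbols for replicate numbers and a black bar for each group mean. miR-29a-3p lies between 1494 and 1721 RPM in every library, and the other names lie at 32.1 RPM or below.

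The order of the levels was set by miR-29a-3p, whose mean over 6 libraries was 53.4 times that of miR-29b-3p, the next name. miR-29b-3p exceeded miR-29c-5p in 6 of 6 libraries, by 1.55 times on average, although their ranges overlapped. Whether a read of miR-29b-3p, encoded at both clusters, was counted once or for each copy is not given in the sources used here. The place of miR-29b-3p in the order depends on that. miR-29c-5p and miR-29c-3p did not differ beyond their spread, the 5p strand being higher in 4 of 6 libraries with a ratio of means of 1.08. miR-29c-3p in turn exceeded miR-29a-5p 5.12 times, with ranges apart. miR-29a-5p, miR-29b-2-5p and miR-29b-1-5p followed, and each overlapped the next.

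Summed over the 3p members, the level was 1638 ± 123 RPM in sham hearts against 1581 ± 7.11 RPM after I/R, or 0.154% to 0.177% and 0.157% to 0.159% of the reads. miR-29a-3p made up 97.0 ± 0.31% of that sum in sham and 97.2 ± 0.10% in I/R hearts. The share of miR-29b-3p was 1.85 ± 0.14% and 1.79 ± 0.14%, and that of miR-29c-3p was 1.18 ± 0.16% and 0.983 ± 0.041%. miR-29c-3p, which differs from miR-29a-3p by 1 base, had 0.963% to 1.39% of its level. The number of mismatches allowed in alignment is not given in the sources used here, nor is the counting of reads that match more than 1 copy, as for miR-29b-3p. The part of misread miR-29a-3p in the reads of miR-29c-3p was not tested.

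The spread between hearts was read against the error that counting alone gives. The coefficient of variation of miR-29a-3p was 7.47% in sham, above the 0.851% from counting, and 0.345% in I/R hearts, below the 0.897% from counting. That of miR-29c-3p was 16.5% in sham against 7.78% from counting, and 3.79% in I/R hearts against 8.93%. For miR-29c-5p it was 30.6% against 7.61% in sham and 13.4% against 8.68% in I/R hearts. In sham hearts miR-29a-5p varied about as much as counting gives, at 18.4% against 18.8%, and in I/R hearts more, at 28.8% against 19.5%. With 3 hearts per group these coefficients are themselves imprecise.

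The main comparison asked whether the family differs after I/R. No member passed the test. Changes were tested with limma on log2(RPM + 1) over 409 names that averaged 1 RPM or more and had reads in at least 3 libraries, with Benjamini-Hochberg adjustment over all 409 and a threshold of 0.05. All 5 members passed that filter. Of them 0 were called, as was 0% of all names tested, and 0 reached an unadjusted p under 0.05 on the deposited scale, against 7.33% of all names. Under some other settings both miR-29c strands did reach it, with adjusted p above the threshold. The groups were apart for 0 of 5 members and for 15.2% of all names. With the replicate number as a block, which treats hearts of equal number as paired, 0 members were called, against 0.978% of all names. The labels do not state such a pairing. In bulk tissue, fewer cells of a type and less RNA per cell cannot be told apart.

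For miR-29a-3p the log2 fold change of I/R over sham was -0.04 (SE 0.09, 95% interval -0.24 to 0.15, limma adjusted p = 0.870), from 1588 ± 119 to 1538 ± 5.30 RPM, and its sign turned without sham replicate 3. Its depth of at least 12150 reads per library made counting error small. miR-29b-3p had a log2 fold change of -0.09 (SE 0.14, interval -0.41 to 0.23, limma adjusted p = 0.816), from 30.2 ± 3.22 to 28.3 ± 2.32 RPM. Both intervals include 0 and lie inside a 2-fold change in either direction.

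The miR-29c strands had the lowest fold changes of the members, and both also failed the test. miR-29c-3p had a log2 fold change of -0.28 (SE 0.16, interval -0.64 to 0.07, limma adjusted p = 0.628), from 19.3 ± 3.18 to 15.5 ± 0.59 RPM. miR-29c-5p had one of -0.29 (SE 0.22, interval -0.79 to 0.21, limma adjusted p = 0.678), from 21.1 ± 6.46 to 16.7 ± 2.24 RPM. The value for the 5p strand rested on sham replicate 2, without which it was -0.08, and became -0.51 without sham replicate 1 and -0.18 without I/R replicate 3. For the 3p strand the same omissions gave -0.20, -0.42 and -0.25. The interval of miR-29c-3p excluded 0 with median-ratio scaling (-0.72 to -0.04), with quantile normalization (-0.68 to -0.04) and without sham replicate 1 (-0.77 to -0.07). Its unadjusted p was 0.0329 in both scalings, 0.0256 in edgeR, 0.0375 in DESeq2 and 0.0242 without sham replicate 1, and that of miR-29c-5p was 0.0292 without sham replicate 1. Adjusted over all names, the p of these fits was 0.702 to 0.944.

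miR-29a-5p had a log2 fold change of 0.05 (SE 0.23, interval -0.47 to 0.56, limma adjusted p = 0.955), from 3.31 ± 0.61 to 3.49 ± 1.01 RPM, and its sign turned under 3 other scalings, in edgeR and in DESeq2. miR-29b-2-5p had one of 0.38 (SE 0.25, interval -0.20 to 0.95, limma adjusted p = 0.661). It was 0.59 without I/R replicate 2 (interval 0.06 to 1.13, limma adjusted p = 0.531) and 0.22 without I/R replicate 3. For names this scarce the added 1 RPM understates the change of the level itself. miR-29b-1-5p had a mean of 0.849 RPM, missed the filter and was not tested.

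Of the 5 members 4 had negative fold changes, where 29.8% of all names did, and their median log2 fold change was -0.09 against 0.10 for all 409 names. Of all names, 287 were positive and 122 negative. Quantile normalization and edgeR with TMM each moved the median of all names by -0.11, and under these all 5 members were negative beside 215 and 209 of the 409 names. Among the 409 fold changes, the percentile was 4.40 for miR-29c-5p, 4.65 for miR-29c-3p, 17.4 for miR-29b-3p, 22.98 for miR-29a-3p and 38.1 for miR-29a-5p. The members were counted after an earlier fit of these data had shown the sign of the 3p names, so the count is a description.

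**Figure D2:**
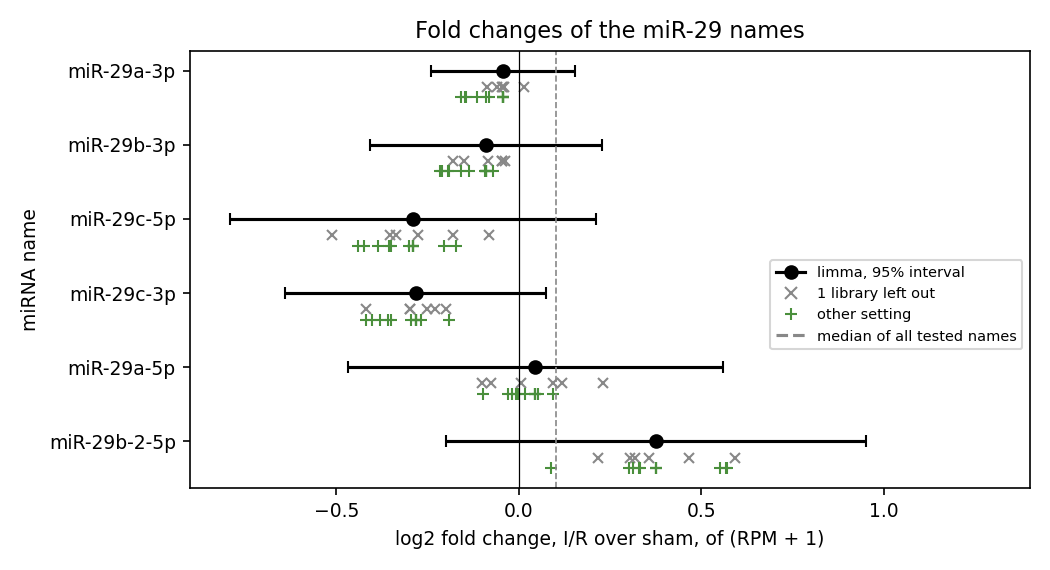
Fold change of I/R over sham on the log2 scale (horizontal axis) for the 6 tested miR-29 names, as the limma estimate with its 95% interval (black), the values with 1 library left out (grey crosses) and under other settings (green plus signs). Every interval crosses 0, and all miR-29b-3p and miR-29c values stay below 0 while those of miR-29a-5p fall on both sides.

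Ratios between 3p members within a library do not depend on how libraries are scaled, so they were compared as well. The log2 ratio of miR-29c-3p to miR-29a-3p was -6.58, -6.16 and -6.38 in sham and -6.59, -6.60 and -6.70 in I/R hearts. The 3 I/R hearts were below the 3 sham hearts, but sham replicate 1 and I/R replicate 1 were nearly level. The means were -6.37 ± 0.21 and -6.63 ± 0.06, a difference of -0.25 (two-sided exact permutation p = 0.1, adjusted p = 0.3 over 3 ratios). With 3 against 3 hearts no p under 0.1 can be reached. Without sham replicate 2 the difference was -0.15.

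The log2 ratio of miR-29b-3p to miR-29a-3p was -5.82, -5.59 and -5.74 in sham and -5.88, -5.78 and -5.65 in I/R hearts. The groups overlapped, with a difference of -0.05 (exact permutation p = 0.6, adjusted p = 0.6). The log2 ratio of miR-29b-3p to miR-29c-3p was 0.76, 0.57 and 0.64 in sham and 0.72, 0.82 and 1.05 in I/R hearts, a difference of 0.20 (exact permutation p = 0.2, adjusted p = 0.3). I/R replicate 3 had the highest ratio, and without it the difference was 0.11.

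**Figure D3:**
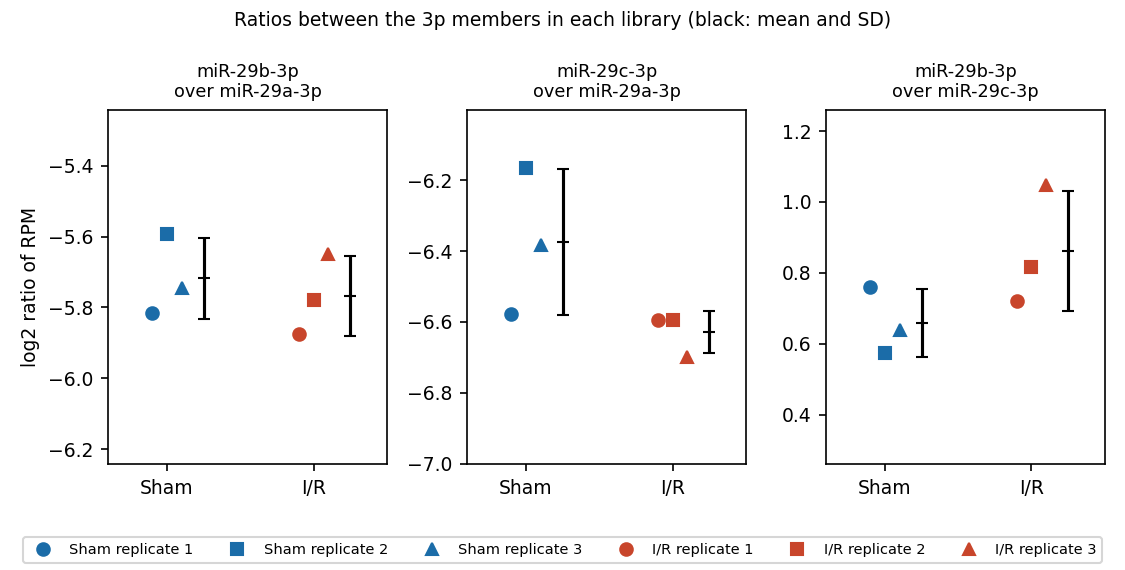
Ratios between 3p members on the log2 scale (vertical axis, the same span of 1 in each panel) for the 3 sham (blue) and 3 I/R hearts (red), with mean and SD in black. The groups are apart for miR-29c-3p over miR-29a-3p alone, where sham replicate 1 lies just above the I/R hearts.

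The 5p and 3p strands of the hairpins were balanced very differently in miR-29a and miR-29c. Of the reads on both strands of miR-29a, 0.217% were 5p (95% Wilson interval 0.187% to 0.252%, over 78839 reads of all libraries), from 0.156% to 0.286% per library. For miR-29c the 5p strand held 52.1% (interval 49.8% to 54.4%, over 1834 reads), from 48.6% to 56.2% per library. Any misread miR-29a-3p among the miR-29c-3p reads would lower this 5p share, and that part was not tested. Intervals cover counting error only. The miR-29a and miR-29c hairpins are both 88 nt long, and in both the 5p strand starts at base 16 and the 3p strand at base 54.

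Among the 94 precursors with both strands kept, miR-29c was number 2 in nearness to equal strands and miR-29a was number 4 from the 3p end. Only precursors whose strand names differ in nothing but the arm ending were paired. The miR-29b hairpins, whose 5p names carry a hairpin number, are thus not among them. The log2 ratio of 5p to 3p, with 1 RPM added to each strand, was 0.09 over 6 libraries in miR-29c and -8.49 in miR-29a. In all, 27 of the 94 (28.7%) were within 1 log2 unit of equal strands. Against miR-29a, the miR-29c hairpin had the lower 3p level, with means over 6 libraries of 17.4 and 1563 RPM, and the higher 5p level, with means of 18.9 and 3.40 RPM.

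Neither balance passed the test between groups. For miR-29c the log2 ratio was 0.09 ± 0.22 in the sham group against 0.09 ± 0.14 after I/R, a difference of -0.01 (95% interval -0.39 to 0.38, limma adjusted p = 0.967). That of miR-29a was -8.53 ± 0.17 and -8.45 ± 0.34, a difference of 0.09 (interval -0.37 to 0.55, limma adjusted p = 0.967). The sign turned without sham replicate 2 or I/R replicate 3 for miR-29c and without I/R replicate 2 for miR-29a. Of the 94 precursors 0 were called, or 0%, with 6 at an unadjusted p under 0.05.

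**Figure D4:**
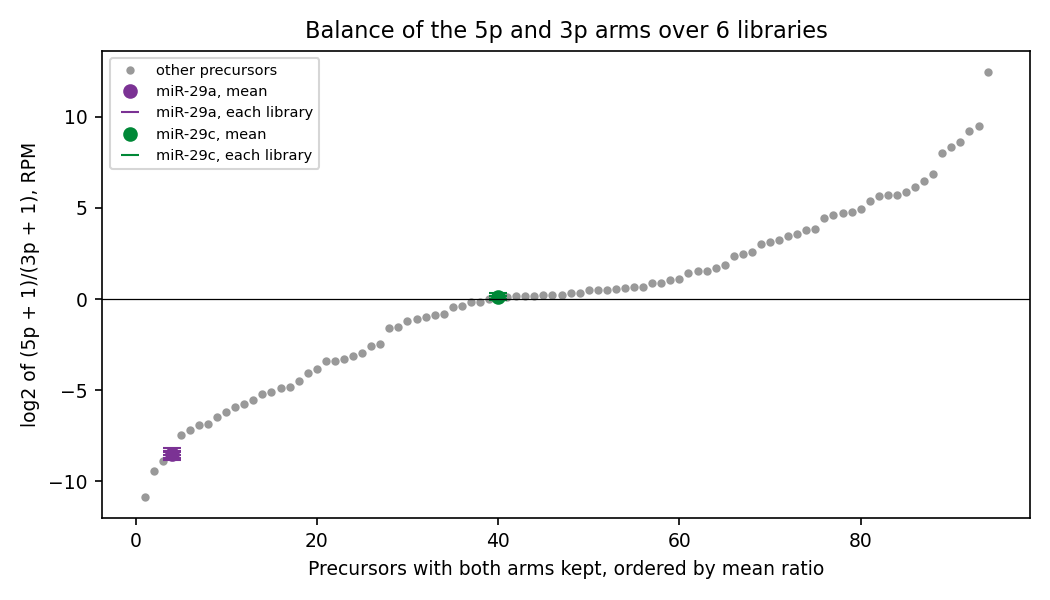
Log2 ratio of 5p to 3p levels, with 1 RPM added to each strand, averaged over 6 libraries (vertical axis). The 94 precursors paired by name stand in ascending order (horizontal axis). miR-29a is in purple and miR-29c in green, with short bars for their values in each library. miR-29c lies at 0.09, next to equal strands, and miR-29a at -8.49 near the 3p end.

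Names with a mean of at least 100 RPM were ranked by how closely their centred log2 levels over 6 libraries followed each 3p member, as the root mean square difference. For miR-29a-3p the nearest of 113 names were miR-30f (0.0526), miR-340-5p (0.0590) and miR-30a-5p (0.0605), where the median name was at 0.146. For miR-29b-3p they were miR-24-2-5p (0.0961), miR-30a-5p (0.0987) and miR-3074-2-3p (0.1000), with a median of 0.170. Of these, miR-24-2-5p and miR-3074-2-3p had nearly the same levels, such as 871 and 889 RPM in sham replicate 1 and 988 and 984 RPM in I/R replicate 3. They may not be separate likenesses, and whether they share reads was not tested. For miR-29c-3p they were miR-22-5p (0.113), let-7c-5p (0.143) and miR-30e-5p (0.150), with a median of 0.260. miR-22-5p was at 264, 335 and 266 RPM in sham and at 246, 254 and 236 RPM in I/R hearts, highest in sham replicate 2 like miR-29c-3p. The measure favours names that vary little, and 6 libraries leave it imprecise.

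Other miRNAs linked to heart fibrosis were counted beside the family. Of 7 miRNAs described as profibrotic 0 were called, with 5 positive and 2 negative fold changes and a log2 median of 0.20, which was 0.06 to 0.13 with 4 positive under 3 other scalings, in edgeR and in DESeq2. The 2 most abundant were miR-21a-5p, known to rise in fibroblasts of the failing heart, at 21588 ± 2271 and 25370 ± 3374 RPM (log2 fold change 0.23, SE 0.11, limma adjusted p = 0.598), and miR-125b-5p at 3542 ± 255 and 4172 ± 29.3 RPM (0.24, SE 0.08, limma adjusted p = 0.598). Of 5 antifibrotic miRNAs outside the family 0 were called, with 3 positive, 2 negative and a log2 median of 0.02, where all 409 names had 0.10. The antifibrotic median turned to between -0.11 and -0.06 under the same settings. The 2 most abundant were miR-26a-5p at 10543 ± 700 and 10387 ± 104 RPM (-0.02, SE 0.07, limma adjusted p = 0.935) and miR-24-3p at 5058 ± 412 and 5517 ± 391 RPM (0.13, SE 0.09, limma adjusted p = 0.661).

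Among marker lists of cell types, that of cardiomyocytes was the most abundant. Its 4 miRNAs summed to 385458 to 389856 RPM in sham and 357828 to 383230 RPM in I/R hearts. These ranges did not overlap, and of single names 15.2% were apart as well. Nearly all of this sum was miR-1a-3p, with means of 380232 and 365121 RPM (log2 fold change -0.06, limma adjusted p = 0.661). miR-499-5p had means of 5602 and 5679 RPM. Fibroblast and stromal miRNAs summed to 194 to 257 and 241 to 295 RPM, smooth muscle miRNAs to 35566 to 46739 and 41127 to 49773 RPM, and endothelial miRNAs to 24893 to 27478 and 25829 to 31830 RPM. Leukocyte miRNAs stood at 109 to 144 and 119 to 122 RPM, red blood cell miRNAs at 3.33 to 6.85 and 1.52 to 5.26 RPM, and epithelial miRNAs at 7.01 to 10.3 and 9.90 to 11.0 RPM. The liver marker miR-122-5p was at 3.05 to 3.58 and 3.67 to 4.32 RPM, also without overlap, as seen for 15.2% of all names. Of the 2 neuronal markers miR-124-3p had 0 reads in all 6 libraries, and their sum, from miR-9-5p, was 81.1 to 132 and 90.8 to 146 RPM. The part of these shifts in the values of the miR-29 names was not tested.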

How the data were processed

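The deposited table gives 1 signal value per miRNA name and library, which its name calls FPKM. Per the submitters' processing notes, the authors used fastp 0.23.0, bcl2fastq 2.19.1.403 and genome build mm10. Aligner, mismatches, strand and the handling of multiple matches were not stated. Each deposited signal column had the same total, that of RPM per kilobase at a constant length of 23 nt. Whole multiples of 1 step made up 100% of values (tolerance 0.01 reads), so reads and RPM were recovered.

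limma 3.58.1 (R 4.3.3, mean-variance trend, two-sided) was fitted on log2(RPM + 1) for 409 names holding at least 99.98% of each library's reads, and on strand ratios for 94 precursors. The fit was tested on simulated data. Ratios between members were tested by exact permutation. edgeR 4.0.16 and DESeq2 1.42.0 on recovered reads, other pseudocounts, filters, scalings and limma settings, and each library left out were alternatives.

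The members and lists (fibrosis-linked and cell type markers) were chosen with earlier results of these data known. Named besides the members were the other miR-29 strands, the 3 most alike names per 3p member, and the 2 most abundant fibrosis-linked names per list. Some cell type markers and miR-92b-5p, which shares the end of miR-29b-3p, are named beyond that rule, chosen after their values were seen. The labels call replicates biological. They do not say that equal numbers share a day. Across names, same-numbered libraries deviated together from their group means (r of 0.14, 0.28 and 0.16) more than others did (-0.19 to 0.07). Deviations within a group cancel out, so these correlations depend on each other. They cannot decide whether the numbers pair the hearts. The main fit left the numbers out, and a block on them was run as an alternative. No 2 libraries of a group agreed within counting error (chi-square of 35.3 to 140 for each degree of freedom). Reads are not stated to be collapsed to molecules.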

Additional observations from a re-analysis of the deposited data

How the results depend on the processing

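No miR-29 name passed under any of the alternatives run. The number of names called, 0 of 409 in limma with 30 at an unadjusted p under 0.05, was 1 without a filter (miR-5103), 2 in DESeq2 (miR-5103 and miR-6240), 0 in edgeR, 0 to 1 with a library left out (miR-27a-5p without sham replicate 2), and 4 (0.978%) with the replicate number as a block (those of DESeq2, miR-3963 and miR-3968). These names lie outside the naming rule and are given after their values were seen. With that block the limma adjusted p of the 5 members was 0.510 to 0.954. miR-29b-3p, miR-29c-3p and miR-29c-5p kept negative fold changes under all 19 alternatives, of -0.22 to -0.04, -0.42 to -0.19 and -0.51 to -0.08. That of miR-29a-3p was -0.16 to 0.016 over the 19, -0.087 to 0.016 with a library left out, -0.15 with median-ratio scaling, -0.11 with totals without the 10 most abundant names, -0.16 in edgeR and -0.14 in DESeq2. That of miR-29a-5p turned to -0.030 with median-ratio scaling, -0.10 with quantile normalization, -0.0070 with totals without the 10 most abundant names, -0.020 in edgeR and -0.0024 in DESeq2, and was -0.10 to 0.23 with a library left out. Leaving out libraries gave strand ratio changes of -0.057 to 0.28 for miR-29a and -0.093 to 0.12 for miR-29c, and a change of miR-29b-3p over miR-29a-3p of -0.11 to 0.012. The cause of these turns was not tested. Paired exact tests of the member ratios cannot go below 0.25. Depth limits the 5p strands of miR-29a and miR-29b most, at 1 to 36 reads per library.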

Other observations

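The reads on the 5p strands of the miR-29b hairpins, which mark the chromosome 6 and the chromosome 1 copy, are given here as values that were chosen after they were seen, with no test. miR-29b-1-5p made up 50%, 50% and 45.5% of the reads on both strands in sham replicates 1 to 3 and 19.0%, 10% and 31.0% in I/R replicates 1 to 3. Each share rests on 10 to 29 reads, and intervals of single libraries from the 2 groups overlap, as in sham replicate 2 (95% Wilson interval 29.9% to 70.1%) and I/R replicate 2 (1.79% to 40.4%). Summed over hearts the share was 29 of 60 reads in sham (48.3%, interval 36.2% to 60.7%) and 14 of 60 in I/R hearts (23.3%, interval 14.4% to 35.4%). The intervals cover counting error only and leave out the spread between hearts.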
